A study of Mus musculus with 6 samples.

Results

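The insulin receptor signalling chain is described here through 10 genes picked by name: the receptor Insr, the substrates Irs1 and Irs2, the inhibitory adaptors Grb10 and Grb14, the kinase chain Pik3r1, Akt1 and Akt2, and the AKT targets Foxo1 and Gsk3b. All 10 were found among the 22180 genes measured; the set was drawn up with earlier results of these data known. Livers of 3 HKO and 3 Con mice were profiled on Affymetrix arrays that probe whole transcripts, each mouse on its own array. HKO males carried floxed alleles of Slug, the zinc finger repressor encoded by Snai2, and albumin-CreERT2, a Cre recombinase that tamoxifen activates and that the albumin promoter restricts to hepatocytes. Con males were Slug f/f littermates. Both groups were C57BL/6J and ate a diet with 60% of its calories as fat for 11 weeks, starting when they were 8 weeks old. Other liver cell types are expected to keep an intact Slug gene in HKO mice, which was not measured here. The sources used here do not say whether Con mice carried the Cre transgene, how recombination was induced, or whether the mice were fasted before the liver was taken.

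Insulin binding switches on the tyrosine kinase of its receptor, which phosphorylates the IRS proteins. These recruit phosphoinositide 3-kinase, whose lipid product brings AKT to the membrane for activation. In hepatocytes AKT then inactivates glycogen synthase kinase 3, which favours glycogen storage, and keeps FOXO1 out of the nucleus, which lowers the transcription of glucose-producing genes, while lipid synthesis genes are raised through SREBP-1c. Most of this control acts on proteins by phosphorylation, which RNA arrays do not measure. Irs2 is an exception in mouse liver: FoxO factors and TFE3 are known to raise its transcription and SREBP-1c to lower it.

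The promoters of both substrates are shown because Irs2 had the largest difference among the members and Irs1 did not share it. RefSeq promoter sequences (GRCm38.p6) were found for 9 of the 10 members, with 15 start sites in all; Insr had no entry. In the 250 bases before each start site, both strands were searched for the Snail family E-box CAGGTG, the FoxO core GTAAACA, the palindromic E-box CACGTG and TGTTTTG, the core of the insulin response element known in mouse Irs2. The last pair of motifs was added after the substrate promoters had been read. In the stretches below, on the minus strand at chr8:11008950-11008983 and chr1:82291534-82291564, capitals mark CACGTG and TGTTTTG.
Irs2: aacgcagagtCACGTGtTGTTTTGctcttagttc
Irs1: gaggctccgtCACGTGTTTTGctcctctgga
The E-box began 44 bases before the start site in Irs2 and 115 bases before it in Irs1. In Irs2, 1 base separated it from TGTTTTG, and in Irs1 the motifs shared 2 bases. The Irs1 window held TGTTTTG once more, 32 bases before the start site and apart from the E-box. Of all 32851 promoter windows, 6.02% held CACGTG, 5.56% held TGTTTTG and 0.295% held both, at any distance from each other. Because the pair was chosen after these promoters were read, the shares do not measure how unusual the 2 substrate promoters are. The whole Irs2 window, chr8:11008930-11009179 on the minus strand, reads as follows.
Irs2 promoter: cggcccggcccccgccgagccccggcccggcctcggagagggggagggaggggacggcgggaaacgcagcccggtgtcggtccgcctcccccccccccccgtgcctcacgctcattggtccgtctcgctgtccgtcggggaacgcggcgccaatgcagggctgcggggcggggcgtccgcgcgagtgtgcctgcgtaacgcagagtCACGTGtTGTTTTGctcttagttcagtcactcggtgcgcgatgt

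The FoxO core, present in 3.17% of windows, was found once, reversed as TGTTTAC, 161 bases before the first listed start site of Akt1 (chr12:112675027-112675057, minus strand), where capitals mark it.
Akt1: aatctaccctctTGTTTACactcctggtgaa
The Snail E-box, present in 17.2% of windows, was not among the letters of the 15 windows. A match is a description of the letters and no match says nothing of binding elsewhere.

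The arrays were closely alike, with correlations over all genes of 0.989 to 0.992 within groups and 0.986 to 0.988 across groups. Snai2 held 4.62, 5.23 and 5.69 in HKO arrays, against 7.74, 7.69 and 7.39 in Con arrays (limma adjusted p = 0.0145). The position of its probes relative to the floxed part was not known. Of 8 hepatocyte markers, 6 had higher and 2 lower means in HKO livers, with a median log2 change of 0.10. Cps1, the first enzyme of the urea cycle, did not overlap between groups (0.27, unadjusted p = 0.0379 and adjusted p = 0.394 in limma). Alb averaged 12.45 in HKO arrays and 12.44 in Con arrays, near the highest deposited value of 12.56, where a change may be compressed. The measured markers of adipose tissue, skeletal muscle and exocrine pancreas all had log2 values under the 5 used below as a minimum for clear signal. Of 7 stellate cell and fibroblast markers, 5 were lower in HKO livers at an unadjusted p under 0.05, against 6.56% of all genes. The others, Des and Lrat, stood at changes of 0.05 and 0.03. The summed level of all 7 on the linear scale ran from 935 to 1056 in HKO arrays and from 1237 to 1333 in Con arrays. Such a sum follows the brightest marker most, here Dcn, with means of 9.22 in HKO arrays and 9.55 in Con arrays. Col1a2 fell (adjusted p = 0.0415 in limma). Of 6 sinusoidal endothelial markers, 3 were lower at an unadjusted p under 0.05. The others, Clec4g, Kdr and Stab2, stood at changes of 0.14, 0.07 and -0.05. Summed levels of all 6 were 1220 to 1235 in HKO arrays and 1299 to 1357 in Con arrays. In liver pieces, fewer cells of a type and less RNA per cell cannot be told apart.

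None of the 10 members passed an adjusted p of 0.05 in limma's moderated test, against 0.203% of all genes (0.0902% higher and 0.113% lower in HKO). At an unadjusted p under 0.05, Irs2 and Insr were higher and Grb10 was lower in HKO livers. That makes 3 of 10 members, against 11.9% of all genes (5.31% higher and 6.56% lower). For 5 of 10 the values of the groups did not overlap, 3 with HKO higher (Insr, Irs2, Akt2) and 2 with HKO lower (Grb10, Gsk3b). Of all genes 18.2% did not overlap, 8.05% with HKO higher and 10.1% with HKO lower. The median log2 change of the members was 0.04, and that of all genes was -0.0081. Values below are deposited log2 values unless called a change, and changes are HKO minus Con with limma's moderated standard error.

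**Figure D1:**
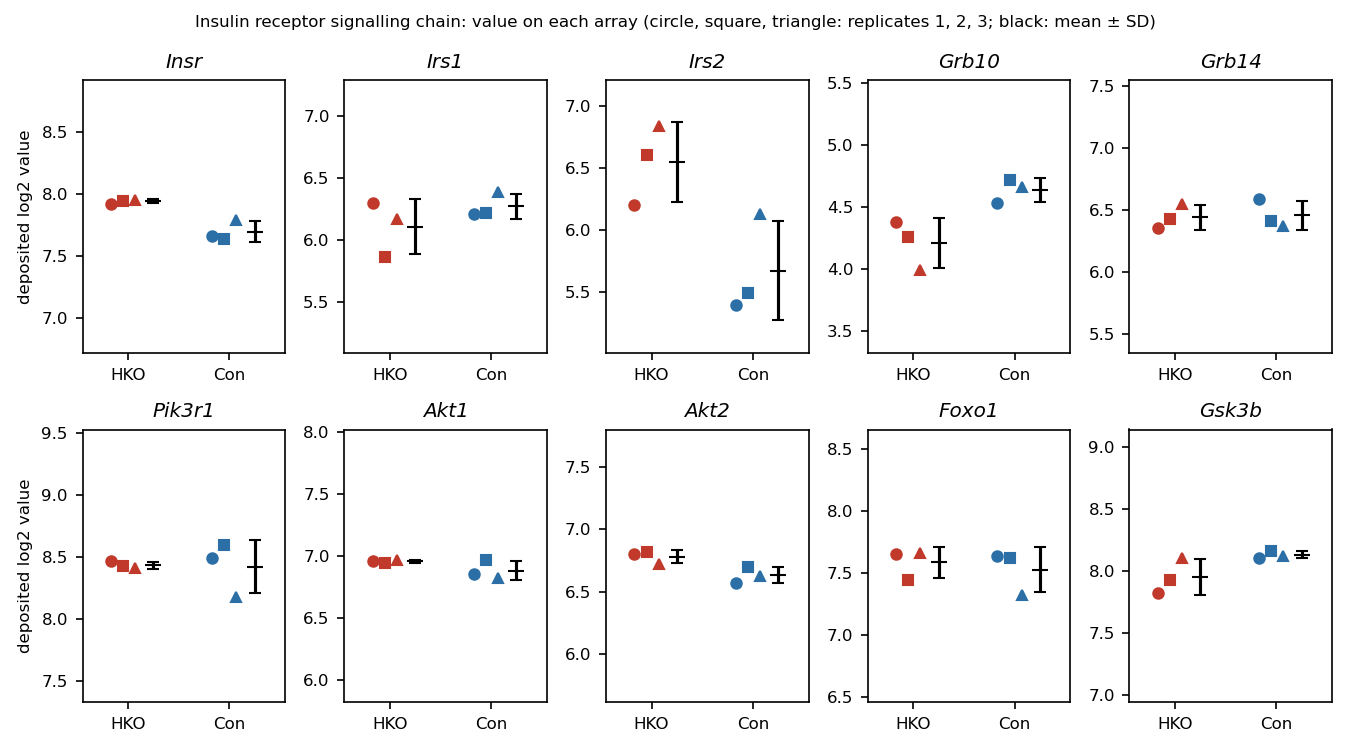
Deposited log2 value of each member on each array (HKO in red on the left, Con in blue on the right; symbols stand for replicates, black bars for mean ± SD, n = 3), with an axis span that is the same in every panel. Irs2 shows the widest distance between group means, 6.55 in HKO and 5.67 in Con, and Con replicate 3 at 6.13 lies close to HKO replicate 1 at 6.21.

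The receptor gene Insr, which encodes the insulin-binding tyrosine kinase, held 7.92, 7.94 and 7.95 in HKO arrays, against 7.66, 7.64 and 7.79 in Con arrays. All HKO values lay above all Con values, by a gap of 0.13, and the HKO arrays were nearly level with each other. HKO minus Con was 0.24 ± 0.10 (SE, 95% interval 0.02 to 0.47), or 1.18-fold, with an unadjusted p of 0.0357 and a limma adjusted p of 0.387. Its place by p was 2040 of 22180 genes. Leaving out any array other than Con replicate 3 took the unadjusted p to between 0.0575 and 0.104.

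Among the substrates, Irs2, which couples the receptor to phosphoinositide 3-kinase and whose loss in mice impairs hepatic insulin action, held 6.21, 6.60 and 6.84 in HKO arrays, against 5.40, 5.49 and 6.13 in Con arrays. The groups did not overlap, but Con replicate 3 stood well above the other Con arrays and the gap to the lowest HKO array was 0.08. The group means were 6.55 ± 0.32 in HKO and 5.67 ± 0.40 in Con (SD, n = 3 each). The log2 change was 0.88 ± 0.23 (SE, 95% interval 0.36 to 1.39), or 1.84-fold, with an unadjusted p of 0.00436 and a limma adjusted p of 0.209. By p it was gene 463 of 22180. Permuting the 6 arrays exactly, two-sided, p was 0.1, which is the lowest value this design can reach. The change was 1.11 without Con replicate 3 and 0.73 without HKO replicate 3, the ends of the range when each array was left out.

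Irs1, the other main substrate of the receptor in liver, held 6.30, 5.86 and 6.17 in HKO arrays, against 6.21, 6.22 and 6.39 in Con arrays. The groups overlapped, and HKO replicate 2 was the lowest. Irs1 stood at a log2 change of -0.16 ± 0.13 (SE, adjusted p = 0.691 in limma), and its 95% interval, -0.47 to 0.15, spans HKO levels from 0.721 to 1.11 times those of Con. Without HKO replicate 2 the change was -0.04. The log2 ratio of Irs2 to Irs1 within an array compares how the substrates changed, not how abundant they are. It averaged 0.44 ± 0.46 in HKO arrays and -0.60 ± 0.30 in Con arrays (SD, n = 3 each), a difference of 1.04. The groups did not overlap, and the exact permutation p was 0.1, the smallest possible, or 0.2 after adjustment over the 3 such pairs compared.

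The adaptors Grb10 and Grb14 bind the activated receptor and dampen its signal. Grb10, an imprinted gene expressed from the maternal allele in most mouse tissues, held 4.38, 4.26 and 3.99 in HKO arrays, against 4.54, 4.72 and 4.66 in Con arrays. Every HKO value lay below every Con value, by a gap of 0.15. The means were 4.21 ± 0.20 in HKO and 4.64 ± 0.09 in Con (SD, n = 3 each), both near the median over genes, which was 3.95 on every array, so the probe set was dim and its change may be compressed. The log2 change was -0.43 ± 0.13 (SE, 95% interval -0.72 to -0.14), or 0.744 times the Con level, with an unadjusted p of 0.00949 and a limma adjusted p of 0.268, place 784 of 22180. The exact two-sided permutation p was 0.1, the smallest possible. The change was -0.32 without HKO replicate 3 and -0.51 without HKO replicate 1. Several stellate and endothelial markers, though not all, were lower in the same HKO livers, by the values given above. Their part in the Grb10 difference was not tested.

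Grb14 held 6.35, 6.42 and 6.54 in HKO arrays, against 6.58, 6.41 and 6.37 in Con arrays. The ranges of the groups were almost the same. Grb14 stood at a log2 change of -0.02 ± 0.11 (SE, adjusted p = 0.971 in limma), with a 95% interval of -0.27 to 0.24, or HKO levels from 0.831 to 1.18 times those of Con. The log2 ratio of Grb10 to Grb14 within an array averaged -2.23 ± 0.30 in HKO arrays and -1.82 ± 0.20 in Con arrays (SD, n = 3 each). It overlapped between groups, with an exact permutation p of 0.2 before and after adjustment over 3 pairs. With 3 arrays a group this test cannot go below 0.1, so it does not settle whether the adaptors changed unequally.

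**Figure D2:**
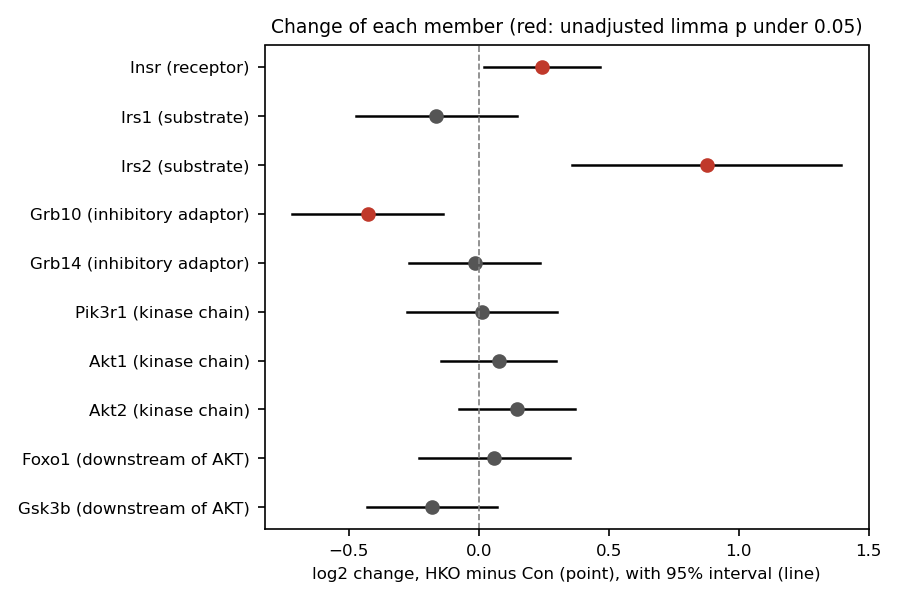
Log2 change, HKO minus Con, of each member in order along the chain, with 95% intervals from limma. The intervals of Insr (0.02 to 0.47), Irs2 (0.36 to 1.39) and Grb10 (-0.72 to -0.14) lie to one side of 0, before adjustment, and those of the other 7 include it.

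In the kinase chain, Pik3r1, which encodes the regulatory subunit p85α of phosphoinositide 3-kinase, held 8.47, 8.43 and 8.41 in HKO arrays, against 8.49, 8.59 and 8.18 in Con arrays. The HKO arrays lay within the range of the Con arrays. Its log2 change was 0.01 ± 0.13 (SE, 95% interval -0.28 to 0.30). Akt1, the widely expressed AKT kinase, held 6.96, 6.94 and 6.97 in HKO arrays, against 6.85, 6.97 and 6.82 in Con arrays. Con replicate 2 reached the HKO level, and the log2 change was 0.08 ± 0.10 (SE, 95% interval -0.14 to 0.30). Akt2, the form most tied to insulin action in liver, held 6.80, 6.82 and 6.72 in HKO arrays, against 6.57, 6.70 and 6.63 in Con arrays. Its groups did not overlap, by a gap of 0.02. The log2 change was 0.15 ± 0.10 (SE, 95% interval -0.07 to 0.37), with an unadjusted p of 0.165 and a limma adjusted p of 0.609. The log2 ratio of Akt2 to Akt1 averaged -0.18 ± 0.06 in HKO arrays and -0.25 ± 0.05 in Con arrays (SD, n = 3 each, exact permutation p = 0.2). The groups overlapped, and the same lower bound on p applies.

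Downstream of AKT, Foxo1, the forkhead factor that insulin restrains, held 7.65, 7.44 and 7.66 in HKO arrays, against 7.63, 7.62 and 7.32 in Con arrays. Each group had 2 arrays near the same level and 1 lower array. Its log2 change was 0.06 ± 0.13 (SE, 95% interval -0.23 to 0.35). Gsk3b, the kinase that inhibits glycogen synthase, held 7.82, 7.92 and 8.10 in HKO arrays, against 8.11, 8.16 and 8.12 in Con arrays. The Con arrays were tightly grouped, and HKO replicate 3 came within 0.0027 of the lowest of them. The log2 change was -0.18 ± 0.11 (SE, 95% interval -0.43 to 0.07), with an unadjusted p of 0.134 and a limma adjusted p of 0.574. It was -0.12 without HKO replicate 1 and -0.26 without HKO replicate 3.

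**Figure D3:**
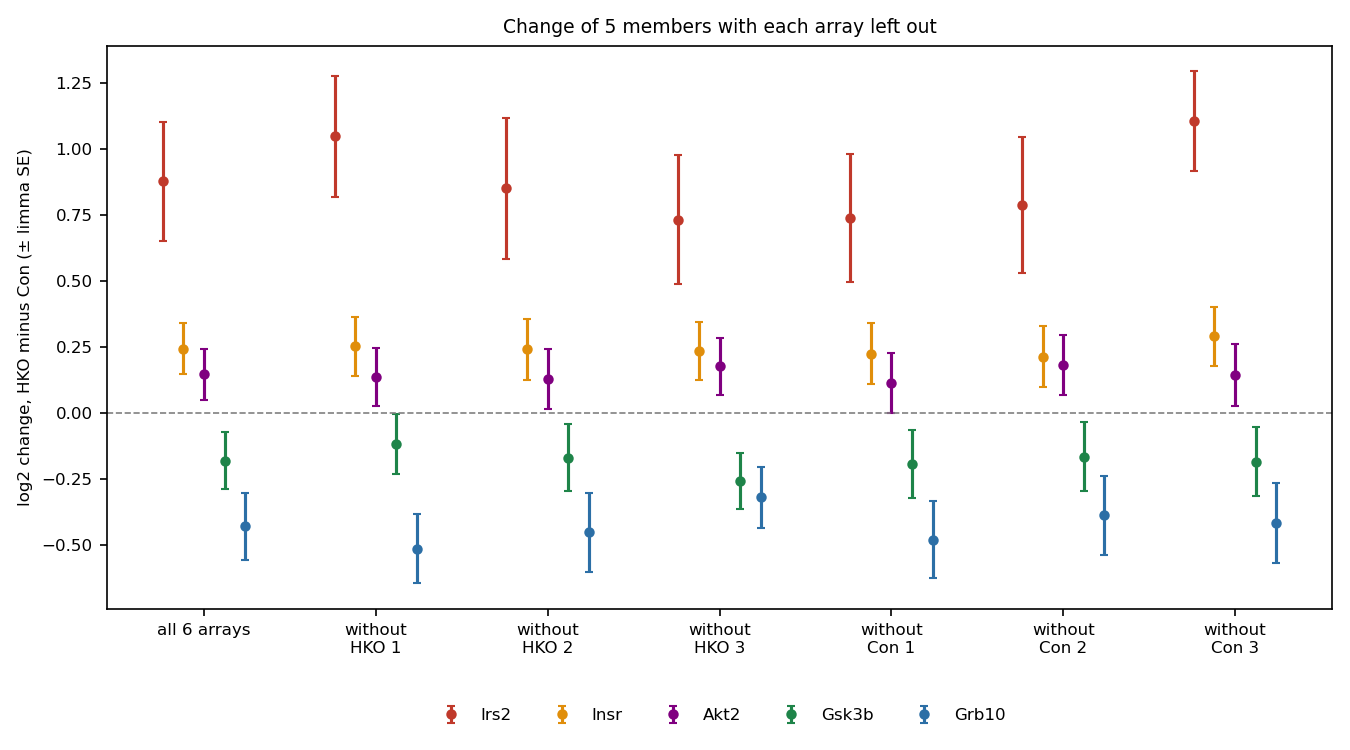
Log2 change, HKO minus Con (points, with limma standard errors), of the 5 members whose groups did not overlap, from all 6 arrays and with each array left out. Irs2 ran from 0.73 to 1.11 and Grb10 from -0.51 to -0.32. Where groups do not overlap, leaving out 1 array cannot change the sign of the difference. The figure therefore shows how far the sizes moved and is no check of direction.

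A few members had other probe sets. Those that name Irs1 or Foxo1 alone were dim, with mean log2 values of 2.999 and 3.52, and stood at changes of 0.05 and -0.02. The remaining Irs2 probe set is shared with a neighbouring transcript, was dim at a mean of 3.18 and stood at 0.23. Their signal, below the median over genes of 3.95, gives no check of the brighter probe sets.

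Other genes of the pathway gave a background for the members. Of 28 further signalling genes, 0 passed the adjusted threshold in limma, and the median log2 change was -0.05. At an unadjusted p under 0.05, 0 were higher and 3 lower. That is 10.7%, against 11.9% of all genes (5.31% higher and 6.56% lower). The 3 lower genes were Pik3r3, another regulatory subunit of phosphoinositide 3-kinase, Irs4, a further substrate, and Foxo4, another forkhead factor. Pik3r3 held 4.11, 3.91 and 3.20 in HKO arrays, against 4.67, 5.01 and 4.42 in Con arrays, a change of -0.96 ± 0.24 (SE, adjusted p = 0.206). Its probe set was dim, with means of 3.74 in HKO arrays and 4.70 in Con arrays. Irs4 averaged 2.90 in HKO arrays and 3.44 in Con arrays, both under the median over genes. Foxo4 stood at a change of -0.36 and Mlst8, a subunit of the mTOR complexes, at -0.27. The values of the groups did not overlap for 7 of the 28, or 25%, against 18.2% of all genes (8.05% with HKO higher and 10.1% with HKO lower). Of these 7, 6 were lower in HKO livers (Pik3r3, Irs4, Foxo4, Mlst8, Pik3cd and Mapkap1) and Rictor was higher. Pik3cd, a catalytic subunit of phosphoinositide 3-kinase known mainly from leukocytes, held 4.26, 4.39 and 4.31 in HKO arrays, against 4.40, 4.85 and 4.48 in Con arrays (adjusted p = 0.511). The Pik3cd probe set was dim as well. Rictor and Mapkap1, subunits of the mTOR complex that phosphorylates AKT, stood at changes of 0.15 and -0.08.

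Of 23 brakes on the pathway, 0 passed the adjusted threshold, 2 were higher and 5 lower at an unadjusted p under 0.05, and the median change was 0.03. The share at that p was 30.4%, against 11.9% of all genes. Groups did not overlap for 26.1%, against 18.2% of all genes. The lipid phosphatase Inpp5d (SHIP1), known mainly from blood cells, held 4.29, 4.56 and 4.47 in HKO arrays, against 4.87, 4.94 and 4.87 in Con arrays, a change of -0.46 ± 0.11 (SE, adjusted p = 0.175). Of 5 T, NK and B cell markers, 0 had an unadjusted p under 0.05; their changes ran from -0.36 (Ptprc) to 0.12 (Cd79a) with a median of -0.11, and their summed linear level ran from 133 to 165 in HKO arrays and from 142 to 204 in Con arrays. Of 8 Kupffer cell and macrophage markers, Cd68 alone had an unadjusted p under 0.05, at -0.40; the median was -0.15, Clec4f was highest at 0.20, and summed levels ran from 963 to 1131 in HKO arrays and from 1049 to 1160 in Con arrays. The part of these cells in the Inpp5d difference was not tested. Dok1, an adaptor, was at -0.36 and Trib2, a pseudokinase, at -0.46, both on dim probe sets. Socs3, a cytokine-induced inhibitor that can also bind the insulin receptor, held 3.90, 4.03 and 4.37 in HKO arrays, against 3.72, 3.78 and 3.60 in Con arrays, a change of 0.40 ± 0.14 (SE, adjusted p = 0.327). The Socs3 and Inpp5d probe sets were dim too, with all values under the 5 used as a minimum for clear signal. Of the brighter brakes at an unadjusted p under 0.05, Deptor averaged 9.11 in HKO arrays and 8.81 in Con arrays, a change of 0.30. Its groups overlapped. Inppl1 averaged 5.26 in HKO arrays and 5.53 in Con arrays, a change of -0.27, and its groups did not overlap. Ptpn1, the phosphatase PTP1B that dephosphorylates the receptor, was named after its values were seen. It held 5.24, 5.13 and 5.05 in HKO arrays, against 5.72, 5.81 and 5.19 in Con arrays (adjusted p = 0.373), and Con replicate 3 lay in the HKO range.

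**Figure D4:**
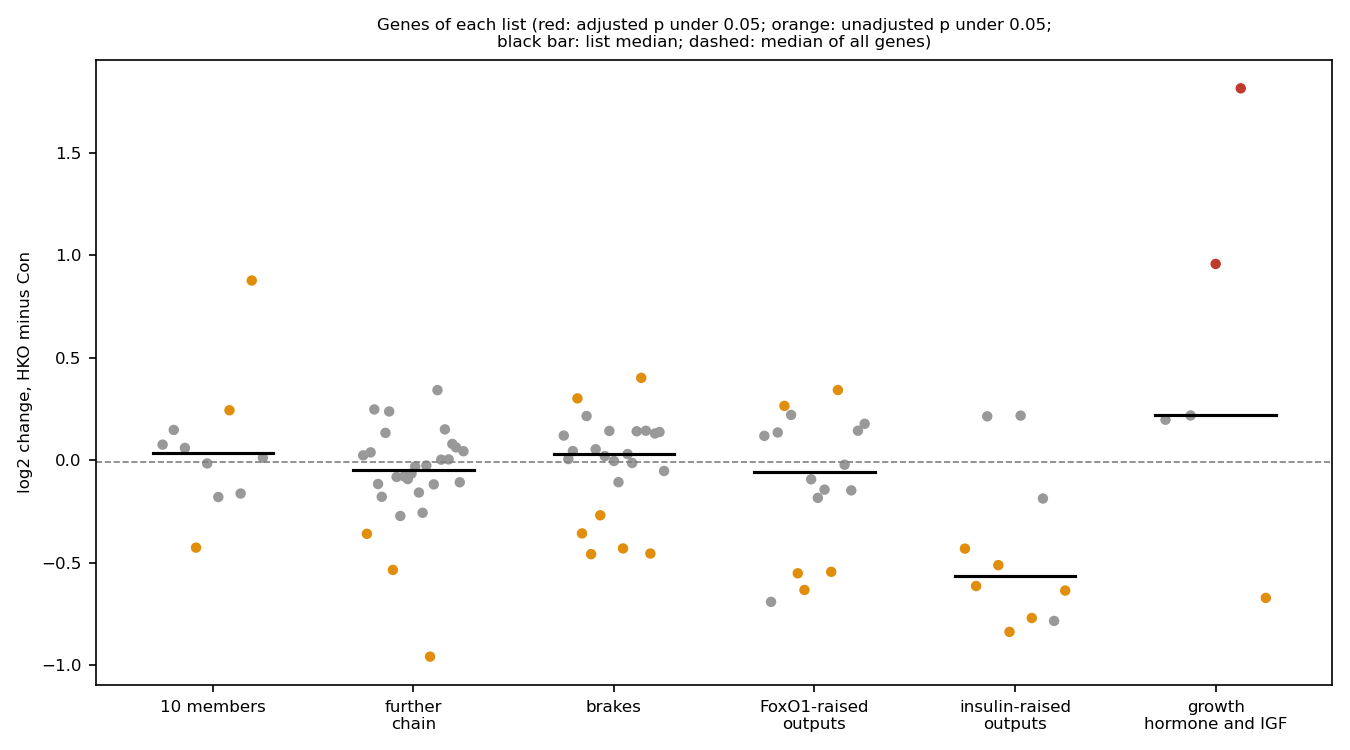
Log2 change, HKO minus Con, of the 10 members and of the genes in 5 related lists (points; black bars are list medians, the dashed line is the median of all genes). Insulin-raised outputs had the lowest median, -0.56, and the 2 genes past an adjusted p of 0.05, Igfbp2 and Igfals, belong to the growth hormone and IGF list.

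Among transcripts that insulin raises in liver, 8 of the 10 measured had lower and 2 higher means in HKO livers. Of these, 0 passed the adjusted threshold, 0 were higher and 6 lower at an unadjusted p under 0.05, and the median change was -0.56. The 6, Fasn, Angptl8, Srebf1, Acly, Elovl6 and Pnpla3, are genes of lipid metabolism. They are 60% of the list, against 11.9% of all genes. The rest had no unadjusted p under 0.05: Ppp1r3c at a change of -0.79, Ppp1r3b at -0.19, Gys2 at 0.22 and Egr1 at 0.21. Groups did not overlap for 60% of the list, against 18.2% of all genes. Fasn, fatty acid synthase, held 8.91, 9.41 and 9.13 in HKO arrays, against 9.96, 9.94 and 10.06 in Con arrays (adjusted p = 0.0763). Srebf1, the gene of SREBP-1c, held 8.13, 7.40 and 7.54 in HKO arrays, against 8.34, 8.35 and 8.29 in Con arrays, a change of -0.64 ± 0.18 (SE, adjusted p = 0.254). The groups of both genes did not overlap. Angptl8, a secreted regulator of lipoprotein lipase, was at -0.61 and Acly, which makes acetyl-CoA from citrate, at -0.43.

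Transcripts that active FoxO1 raises went both ways, with higher means in HKO livers for 7 and lower means for 9 of the 16 measured. Of these, 0 passed the adjusted threshold, 2 were higher and 3 lower at an unadjusted p under 0.05, and the median change was -0.06. The share at that p was 31.2%, against 11.9% of all genes. Groups did not overlap for 25%, against 18.2% of all genes. Ppargc1a, a coactivator of gluconeogenic genes, was at 0.34 ± 0.12 (SE) and Cdkn1b, a cell cycle inhibitor, at 0.27 ± 0.10. G6pc, the last enzyme of glucose production, held 9.70, 8.76 and 8.88 in HKO arrays, against 9.67, 9.67 and 9.65 in Con arrays; HKO replicate 1 stood at the Con level and the other HKO arrays clearly below it. Pdk4, which inhibits pyruvate dehydrogenase, was at -0.55 ± 0.22. Igfbp1, an IGF binding protein repressed by insulin and named after its values were seen, held 7.18, 6.97 and 6.70 in HKO arrays, against 7.86, 7.95 and 6.95 in Con arrays. Con replicate 3, the Con array with the highest Irs2, had the lowest Igfbp1 of its group.

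**Figure D5:**
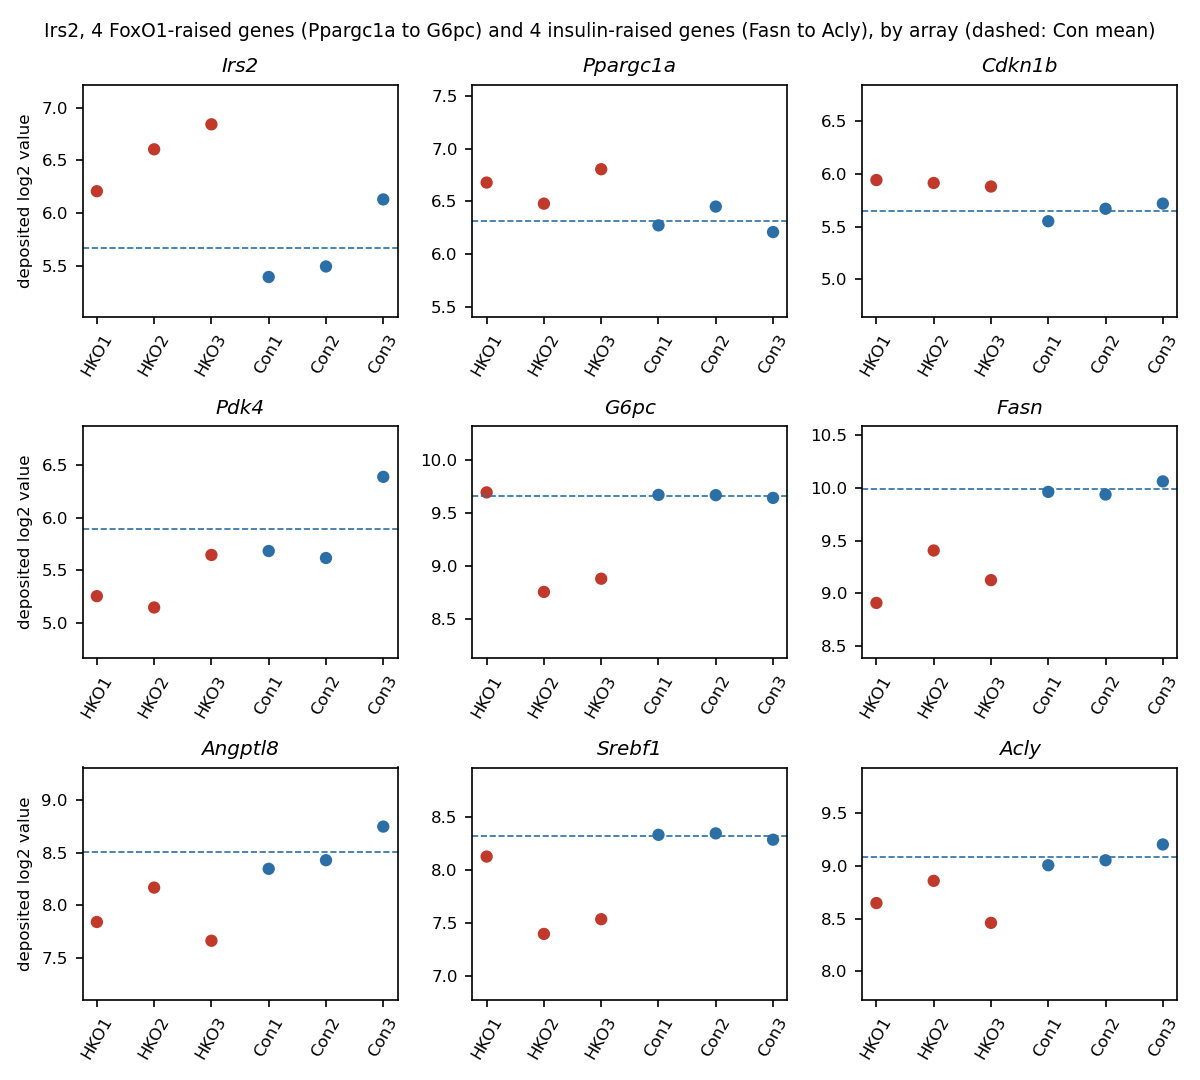
Deposited log2 values of Irs2, 4 FoxO1-raised genes and 4 insulin-raised genes on each array (HKO red, left; Con blue, right; dashed line at the Con mean; equal axis spans). Irs2 was above its Con mean of 5.67 in all 3 HKO arrays while Fasn and Srebf1 were below theirs in all 3, and G6pc was lower in HKO replicates 2 and 3 and at the Con level in HKO replicate 1.

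The genes whose pattern over the 6 arrays was most like that of Irs2, among 8119 others with a mean of at least 5, were Nudt7, Haus4, Fnip1, Zdhhc14 and Arhgap29, with Pearson r from 0.986 to 0.996. For Grb10, among 8120 genes, they were Copb1, Pex13, Gm7072, Plpp2 and Esco1, with r from 0.985 to 0.995. In all, 57 genes had r above 0.95 with Irs2 and 81 with Grb10. Part of each r is the group difference itself. Nudt7, a peroxisomal hydrolase of coenzyme A, held 9.05, 9.28 and 9.41 in HKO arrays, against 8.56, 8.62 and 9.08 in Con arrays, with Con replicate 3 just above HKO replicate 1. None of these 10 genes passed an adjusted p of 0.05 in limma.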

How the data were processed

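Liver RNA (400 ng per mouse) of 3 HKO and 3 Con mice was hybridised to Affymetrix arrays, per the labels' protocols. The deposited table holds a log2 value for each probe set on each array. Per the submitters' processing notes, the authors used RMA and R 3.3.0. RMA corrects background, equalises array distributions and summarises probes, so differences are relative to the whole array and changes of dim genes are compressed. The sources used here do not name the genome build of the array design. The number of arrays limits the precision; arrays have no read depth.

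Of 41345 probe sets, 23521 had 1 gene in the platform annotation, 1814 several and 16010 none. Of those with 1 gene, 23328 matched a RefSeq gene table (GRCm38.p6) by Entrez identifier, which changed 0 symbols. Where a gene had several probe sets, the brightest on average over the 6 arrays stood for it, which gave 22180 genes. HKO was compared with Con in limma 3.58.1 (R 4.3.3; lmFit and eBayes, a two-sided test with no term besides group), adjusted over all genes by Benjamini-Hochberg, and no filter on low values. The threshold was an adjusted p of 0.05. Exact permutation tests over arrays had a smallest p of 0.1. All 10 members are named, and in each related list the 4 genes with the lowest p. Ptpn1, Deptor, Inppl1, Igfbp1, Pik3cd, Rictor, Mapkap1, Ghr and the cell markers were named beyond this rule, after their values were seen. The same holds for Elovl6, Pnpla3, Ppp1r3c, Ppp1r3b, Gys2 and Egr1. Members, lists and motifs were chosen with earlier results of these data known. Of the listed genes, some had no probe set of their own and were not analysed here. The steps were tested on simulated data. That was a check of the code, and how often changes of the members' size were recovered is not given here. Alternatives were other normalizations, filters, probe set rules, variance models, thresholds, a replicate block and leaving out each array. Plots were made in Python 3.11.15 (matplotlib 3.10.9).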

Additional observations from a re-analysis of the deposited data

How the results depend on the processing

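None of the 10 members passed an adjusted p of 0.05 under any of the 17 other settings at that threshold, nor, with all else as reported, at an adjusted p of 0.1; Irs2 was under 0.1 with genes of a mean of at least 5 (0.0771) and with a variance trend (0.0861). At an unadjusted p under 0.05 the count was 3, and 2 to 4 under the other settings, a check added after the data were seen. Of 169 member values under alternatives, 163 kept their direction and 6 changed sign, all of them of members near 0. That count is no measure of stability, since part of it was fixed in advance. A filter on low means, a variance trend, a test with no shared variance and the replicate block leave the log2 change itself as it was. Leaving out 1 array cannot change the sign where groups did not overlap. Grb14 was 0.0057 after another quantile normalization and ran from -0.069 to 0.0495 with each array left out, Pik3r1 from -0.11 to 0.10 and Foxo1 from -0.043 to 0.13. The adjusted p of Irs2 ran from 0.0771 (genes with a mean of at least 5) to 0.467 (without Con replicate 2), and that of Grb10 from 0.129 to 0.522; Grb10 fell out at a minimum mean of 5. Over all genes the count past the threshold was 45, and 146 and 242 with genes of a mean of at least 4 and 5, 215 with a variance trend, 0 in a test with no variance shared between genes (which gave 4 members at an unadjusted p under 0.05), 115 at an adjusted p of 0.1, 2632 at an unadjusted p under 0.05, and 4 to 32 with each array left out. With the replicate number as a block it was 3. The shared numbers are not said to pair mice, and the deviations of same-numbered arrays correlated at only 0.02 to 0.03, although each array correlated best with its own number; with the block no member passed the adjusted threshold (Irs2 adjusted p = 0.113), and Insr no longer had an unadjusted p under 0.05 (0.0605), which left 2 members. The cause of these shifts was not tested. With 3 arrays a group, the standard errors of Insr, Akt2 and Gsk3b were 0.10 to 0.11, which limits what can be resolved at changes of their size.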

Other observations

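Genes of the growth hormone and IGF axis, next to the insulin pathway, went both ways, with higher means in HKO livers for 4 and a lower mean for 1. Of the 5 measured, Igfbp2 and Igfals rose, at adjusted p values of 0.0249 and 0.0251 in limma, and 3 did not pass. Of all genes 0.203% passed. Neither gene passed in every setting. Without Con replicate 2, without HKO replicate 2, with the replicate block or with no shared variance, 0 genes passed as higher in HKO. Igfbp2, which binds insulin-like growth factors, held 8.42, 8.50 and 8.09 in HKO arrays, against 6.27, 6.29 and 7.00 in Con arrays. Igfals, the acid-labile subunit that carries IGF complexes in blood, held 7.12, 7.27 and 7.16 in HKO arrays, against 6.06, 6.34 and 6.26 in Con arrays. Igfbp3, another carrier of these complexes and in liver a product mainly of non-parenchymal cells, stood at a change of -0.67 ± 0.16 (SE, adjusted p = 0.172). Several stellate cell and endothelial markers, though not all, were also lower in these arrays, and their part was not tested. Igf1 itself was at 0.22 ± 0.13 and Ghr, the growth hormone receptor, at 0.20 ± 0.12, with unadjusted p values of 0.123 and 0.137. Whether these genes differ from the insulin receptor chain was not tested. Con replicate 3 had the highest Igfbp2 of its group, as it had the highest Irs2. The HKO arrays did not share this match: HKO replicate 3 had the highest Irs2, 6.84, and the lowest Igfbp2, 8.09, of its group.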
